A study of Mus musculus with 14 samples.

Results

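Extracellular proteolysis in the ischemic brain was followed through the genes of the plasminogen activators Plau and Plat, the activator receptor Plaur, the inhibitors Serpine2 and Serpini1, the kallikreins Klk6 and Klk8, and the thrombin receptors F2r and Thbd. They were chosen by symbol, with earlier results of these data known. They are 9 of the 46904 genes in the table, and all 9 had reads in each of the 14 libraries. RNA came from brain hemispheres of male mice on a C57BL/6J background, 12 weeks old, taken 48 h after a middle cerebral artery occlusion (MCAO) of 20 min that was followed by reperfusion. Cort+/+ mice carry the gene of the neuropeptide cortistatin, and Cort-/- mice are constitutive knockouts that lack it. The contralateral hemisphere (CL) is the uninjured side of an operated brain, so no library comes from an animal without surgery, and the ischemic hemisphere (MCAO) holds the lesion together with spared tissue. The data hold 3 libraries of either hemisphere of Cort+/+ mice, and 3 of the CL and 5 of the MCAO side of Cort-/- mice. The study's methods name 5 MCAO replicates, and the 3 of Cort+/+ mice carry the numbers 2, 3 and 4. For comparisons with large variability, the study kept only replicates that grouped together. Whether the Cort+/+ MCAO libraries were selected in this way is not given. Which CL and MCAO libraries come from the same animal is not given in the labels.

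Plasminogen activators are serine proteases that cut plasminogen, a circulating zymogen, into plasmin, which digests fibrin and matrix proteins. The urokinase type (Plau) works at the cell surface on its receptor (Plaur), while the tissue type (Plat) is made by endothelial cells, neurons and microglia and is the enzyme given as a drug to dissolve clots in stroke. Serpins trap such proteases in a covalent complex: Serpine2 (protease nexin-1) inhibits thrombin, urokinase and tissue activator, and Serpini1 (neuroserpin) is a neuronal inhibitor of the tissue activator. Klk6 and Klk8 (neuropsin) are secreted kallikreins of the brain, the first known from oligodendrocytes and demyelination and the second from hippocampal plasticity. Thrombin cleaves and thereby activates the receptor F2r (PAR1), while Thbd (thrombomodulin) binds thrombin on endothelium and turns it towards activation of the anticoagulant protein C.

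The libraries held between 25989673 and 43032291 reads on genes, with a median of 36026771.5. Cort had 64 to 139 reads in each Cort+/+ library and 0 to 4 in each Cort-/- library, so the targeted gene followed the labels in all 14. Values are given as RPKM, in which reads are divided by the length of the gene and the size of the library, which allows levels of different genes to be compared. Sums of marker genes (in RPKM) differed between the hemispheres as well. The 5 microglial markers summed to 87.3–96.4 in Cort+/+ CL and 115–180 in Cort+/+ MCAO libraries, and to 87.4–103 and 132–196 in Cort-/- mice. The 5 astrocyte markers did not move together: the mean of Gfap was 70.8 in Cort+/+ CL and 210.3 in Cort+/+ MCAO libraries, and 72.8 and 279.9 in Cort-/- mice, whereas that of Slc1a2, the most abundant of them in CL libraries, was 248 and 229.8, and 250.1 and 214. The sum of 5 markers of infiltrating monocytes and macrophages was mostly Lyz2, with means of 7.06 and 15.3 in Cort+/+ and 6.78 and 23.4 in Cort-/- mice, and the other 4 had group means of at most 0.718. The 5 markers of striatal spiny neurons stood at 196–240 and 107–181 in Cort+/+ mice, and at 196–212 and 85.6–135 in Cort-/- mice. In whole hemispheres, fewer cells of a type and less RNA per cell cannot be told apart, and the part of cell composition in the results on the 9 genes was not tested.

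The 9 genes lie on 7 chromosomes of the mouse genome (build GRCm39, positions from GENCODE M39), and Klk8 and Klk6 both belong to the kallikrein cluster. Klk8 (chr7:43446969-43453250, plus strand) ends 20618 bases before Klk6 (chr7:43473869-43481516, plus strand), and Plaur (chr7:24161875-24175394, plus strand) is on the same chromosome. Plau is at chr14:20886722-20893453 on the plus strand, Plat at chr8:23247709-23272871 on the plus strand, Serpini1 at chr3:75464800-75550802 on the plus strand, Serpine2 at chr1:79763323-79839144 on the minus strand, F2r at chr13:95737382-95755177 on the minus strand and Thbd at chr2:148216045-148250201 on the minus strand. An annotated lncRNA, Gm63115, covers all 6732 bases of Plau on the opposite strand, the lncRNA 2310002F09Rik overlaps the first 457 bases of Klk8 on the opposite strand, and the receptor gene Sstr4 lies inside the span of Thbd, also on the opposite strand. The libraries are stranded, but the strand setting of the counting is not given in the sources used here, so reads of these pairs may not be separated.

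Of these genes, 5 were higher in ischemic hemispheres, and the 250 bases before the start of the canonical transcript are shown for 4 of them. The window of Thbd holds 93 bases of exons of other transcripts and is not shown, and that of Klk6 ends in 5 such bases. The windows were read from the same genome build, 5′ to 3′ on the strand of the gene, and the capitals mark matches on either strand to 7 motifs: AP-1 (TGACTCA), STAT (TTCNNNGAA), the GC box (GGGCGG), the motif named TATA box (TATAAA), the motif with the letters CCAAT, the cyclic AMP response element (TGACGTCA) and the kappa-B site. The windows are chr14:20886472-20886721 for Plau, chr7:24161625-24161874 for Plaur, chr7:43473624-43473873 for Klk6 and chr7:43446719-43446968 for Klk8, all on the plus strand.
Plau: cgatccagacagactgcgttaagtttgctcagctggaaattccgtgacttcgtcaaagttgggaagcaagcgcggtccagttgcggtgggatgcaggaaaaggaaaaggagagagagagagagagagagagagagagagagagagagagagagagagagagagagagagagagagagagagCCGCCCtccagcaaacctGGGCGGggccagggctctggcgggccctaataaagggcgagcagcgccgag
Plaur: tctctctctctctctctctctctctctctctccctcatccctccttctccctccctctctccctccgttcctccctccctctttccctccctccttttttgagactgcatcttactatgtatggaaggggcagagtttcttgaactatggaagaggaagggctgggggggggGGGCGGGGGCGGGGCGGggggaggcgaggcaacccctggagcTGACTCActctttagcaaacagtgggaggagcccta
Klk6: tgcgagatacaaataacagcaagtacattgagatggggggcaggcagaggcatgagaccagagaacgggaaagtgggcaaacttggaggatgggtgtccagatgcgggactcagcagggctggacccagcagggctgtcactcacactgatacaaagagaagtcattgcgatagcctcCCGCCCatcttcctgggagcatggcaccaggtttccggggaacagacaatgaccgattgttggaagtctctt
Klk8: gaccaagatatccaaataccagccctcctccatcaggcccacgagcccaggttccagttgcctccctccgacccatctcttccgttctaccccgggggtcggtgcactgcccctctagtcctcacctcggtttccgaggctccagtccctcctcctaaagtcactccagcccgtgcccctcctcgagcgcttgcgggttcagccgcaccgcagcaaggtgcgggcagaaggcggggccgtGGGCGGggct
Each of these 4 windows held a GC box, as did that of Thbd. The motif was present in 7 of the 9 windows, those of Serpine2 and F2r included, and in 36.3% of 21770 windows of the same length before protein-coding genes. Plaur had 3 overlapping or adjoining GC boxes, and also the one AP-1 match of the 9 windows, TGACTCA, at 36 to 30 bases before the start. An AP-1 match stood in 4.02% of all windows. Plat and Serpini1 had a CCAAT box, which 36.5% of all windows had. The STAT motif (7.70% of all windows), the TATA box (11.9%), the cyclic AMP response element (1.69%) and the kappa-B site (7.62%) were not found in the 9 windows. These matches describe the letters of the windows only, and no binding was measured.

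The levels of the 9 genes spanned a wide range in the uninjured hemisphere, with the inhibitors far above the proteases. In Cort+/+ CL libraries, Serpine2 had the highest mean at 83.6 ± 3.66 RPKM (SD, n = 3), followed by Serpini1 at 55.8 ± 4.45, Plat at 12.7 ± 3.42, Klk6 at 3.36 ± 1.00, Thbd at 2.93 ± 0.781, F2r at 2.51 ± 0.361, Klk8 at 1.07 ± 0.200, Plau at 0.896 ± 0.0924 and Plaur at 0.551 ± 0.301. The libraries of Serpine2, Serpini1 and Plat did not overlap with those of any gene below them in this order. The ranges of Klk6, Thbd and F2r overlapped with each other, as did those of Klk8, Plau and Plaur. The order of the 9 means was the same in Cort-/- CL libraries, from 74.2 ± 2.04 RPKM (SD, n = 3) for Serpine2 to 0.4999 ± 0.119 for Plaur. Plaur rested on 18 to 198 reads per library, Klk8 on 41 to 239 and Plau on 62 to 365, whereas Serpine2 and Serpini1 had at least 4683 and 5470.

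**Figure D1:**
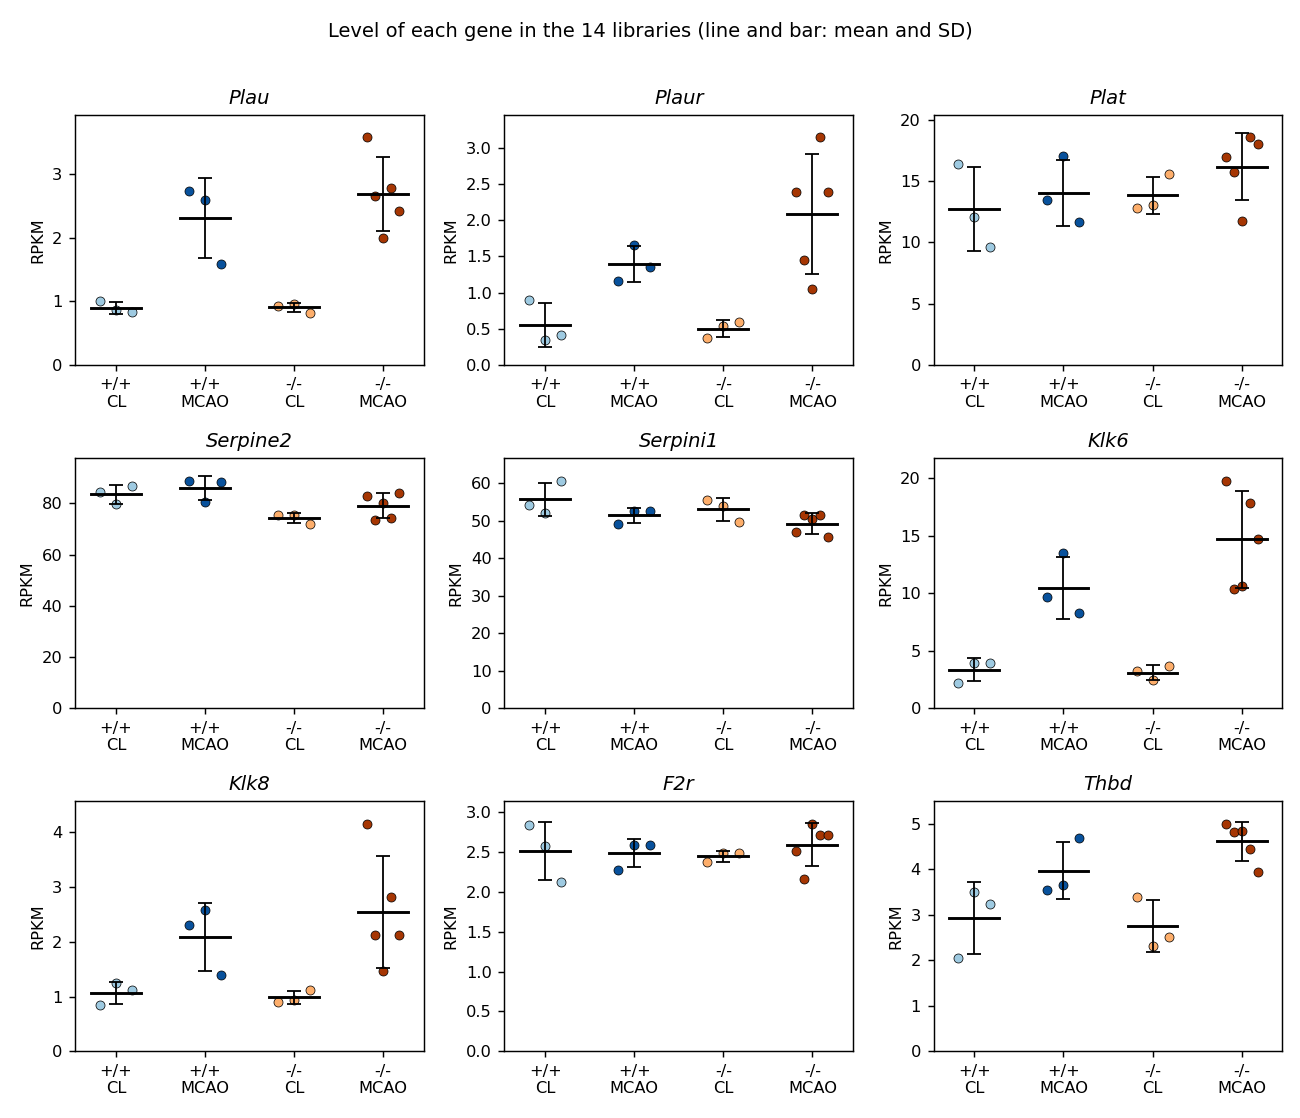
Level of each of the 9 genes (vertical axis, RPKM, starting at 0) in the CL and MCAO libraries of Cort+/+ and Cort-/- mice. Each point is 1 library, and the line and bar give the mean and SD. For Plau, Plaur, Klk6, Klk8 and Thbd, all 8 MCAO points lie above all 6 CL points, while the points of Plat, Serpine2, Serpini1 and F2r overlap.

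The comparison of the ischemic with the contralateral hemisphere asks how these genes respond to ischemia with and without cortistatin. Over both genotypes, Klk6, Plaur, Plau, Klk8 and Thbd were higher in MCAO hemispheres, with log2 fold changes of 1.90, 1.54, 1.35, 1.04 and 0.60 on the log2(RPKM + 0.1) scale. Plat, Serpine2, F2r and Serpini1 did not pass the test. A gene is called where its limma p, adjusted by Benjamini-Hochberg over all 46102 genes tested, is under 0.05. By this rule 5 of the 9 genes were called higher and none lower, against 2.52% of all genes higher and 0.902% lower. All 9 genes reached a mean of 0.5 RPKM. In a fit of only the 17476 genes that did, 1348 were called higher and 832 lower. For the same 5 genes each of the 8 MCAO libraries exceeded each of the 6 CL libraries, which held for 1.72% of all genes. The median log2 fold change was 0.60 over the 9 genes and 0.00 over all genes.

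Plau, the urokinase-type activator, rose in ischemic hemispheres. In Cort+/+ mice it stood at 1.00, 0.864 and 0.824 RPKM in CL libraries and at 2.74, 2.59 and 1.59 RPKM in MCAO libraries. Cort-/- mice had 0.929, 0.963 and 0.818 RPKM in CL libraries and 3.58, 2.66, 2.00, 2.78 and 2.42 RPKM in MCAO libraries. The lowest MCAO library, replicate 4 of Cort+/+ mice, was still above every CL library, and the CL libraries were close to each other, with the highest 1.22 times the lowest. The log2 fold change over both genotypes was 1.35 (SE 0.140, limma adjusted p = 0.000854).

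Plaur, the urokinase receptor that holds the enzyme at the cell surface, rose as well, from low levels. Its Cort+/+ libraries had 0.897, 0.346 and 0.409 RPKM in CL and 1.16, 1.66 and 1.35 RPKM in MCAO. Its Cort-/- libraries had 0.366, 0.539 and 0.595 RPKM in CL and 2.40, 1.45, 1.06, 3.15 and 2.39 RPKM in MCAO. The first Cort+/+ CL library was above the other CL libraries, and the third Cort-/- MCAO library, also the one with the fewest reads, was the lowest of the ischemic side. The log2 fold change over both genotypes was 1.54 (SE 0.249, limma adjusted p = 0.00563).

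Plat, the tissue-type activator, was the most abundant of the activators and showed no such separation. Cort+/+ mice had 16.4, 12.1 and 9.59 RPKM in CL and 13.4, 17.0 and 11.7 RPKM in MCAO libraries, and Cort-/- mice had 12.8, 13.1 and 15.6 RPKM in CL and 16.9, 15.7, 11.7, 18.6 and 18.01 RPKM in MCAO libraries. The hemispheres overlapped in both genotypes. Its log2 fold change was 0.19 (95% confidence interval −0.11 to 0.48, limma adjusted p = 0.595), so that its upper bound lay below the lower bound of Plau, at 1.04. Plat stood at 14.2 times the level of Plau in Cort+/+ CL hemispheres and at 6.09 times in Cort+/+ MCAO hemispheres, and at 15.3 and 6.02 times in Cort-/- mice.

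The inhibitors stayed within a narrow range. Serpine2 had 84.5, 79.6 and 86.8 RPKM in Cort+/+ CL and 88.9, 80.7 and 88.5 RPKM in Cort+/+ MCAO libraries. Its Cort-/- libraries had 75.4, 75.4 and 71.9 RPKM in CL and 83.0, 73.7, 80.2, 74.3 and 84.2 RPKM in MCAO libraries. The hemispheres overlapped, and the log2 fold change over both genotypes was 0.06 (95% confidence interval −0.02 to 0.15, limma adjusted p = 0.533). Serpini1, the neuronal inhibitor, had 54.3, 52.2 and 60.8 RPKM in Cort+/+ CL and 49.1, 52.7 and 52.6 RPKM in Cort+/+ MCAO libraries. Its Cort-/- libraries had 55.6, 54.1 and 49.7 RPKM in CL and 46.9, 51.6, 50.6, 51.5 and 45.6 RPKM in MCAO. The MCAO means were below the CL means in both genotypes, with overlapping libraries. Its log2 fold change was −0.11 (95% confidence interval −0.21 to −0.01), which did not pass the adjusted limma test (adjusted p = 0.264, unadjusted p = 0.0309). Sums of 6 general neuronal markers ranged over 1807–2187 RPKM in Cort+/+ CL and 1613–1857 RPKM in Cort+/+ MCAO libraries, and over 1831–1956 and 1611–1739 RPKM in Cort-/- mice, and their part in the Serpini1 values was not tested.

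Klk6 had the largest fold change of the 9 genes. Its Cort+/+ libraries had 2.20, 3.96 and 3.91 RPKM in CL and 9.65, 13.5 and 8.26 RPKM in MCAO. Its Cort-/- libraries had 3.20, 2.40 and 3.67 RPKM in CL and 19.8, 10.4, 10.6, 17.9 and 14.7 RPKM in MCAO. The lowest MCAO library, at 8.26 RPKM, was far above the highest CL library, at 3.96 RPKM. The log2 fold change over both genotypes was 1.90 (SE 0.194, limma adjusted p = 0.00077). The 5 oligodendrocyte markers summed to 948–994 RPKM in Cort+/+ CL and 771–938 in Cort+/+ MCAO libraries, and to 752–924 and 744–889 in Cort-/- mice. Of the 5 markers, 1 had a log2 fold change above 0 in Cort+/+ mice and 2 in Cort-/- mice. Their part in the Klk6 values was not tested.

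Klk8, in the same cluster, rose by less. It stood at 0.855, 1.25 and 1.11 RPKM in Cort+/+ CL and 2.31, 2.58 and 1.39 RPKM in Cort+/+ MCAO libraries, and at 0.900, 0.933 and 1.12 RPKM in Cort-/- CL and 4.15, 2.12, 1.46, 2.83 and 2.13 RPKM in Cort-/- MCAO libraries. The first Cort-/- MCAO library was the highest, and the lowest MCAO values were close to the highest CL value of 1.25 RPKM. The log2 fold change over both genotypes was 1.04 (SE 0.206, limma adjusted p = 0.0146).

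Of the thrombin receptors, Thbd was higher in ischemic hemispheres and F2r did not pass the test. Thbd had 2.04, 3.51 and 3.24 RPKM in Cort+/+ CL and 3.55, 3.66 and 4.69 RPKM in Cort+/+ MCAO libraries, so the highest CL and the lowest MCAO library nearly met. Its Cort-/- libraries had 3.40, 2.33 and 2.51 RPKM in CL and 4.999, 4.82, 4.85, 4.44 and 3.95 RPKM in MCAO libraries. The log2 fold change over both genotypes was 0.60 (SE 0.127, limma adjusted p = 0.0216), and the call was lost without Cort-/- CL replicate 2 or 3, where the adjusted p reached 0.0591. The 5 endothelial markers summed to 32.1–34.0 RPKM in Cort+/+ CL and 35.8–37.6 in Cort+/+ MCAO libraries, and to 24.7–28.4 and 34.4–49.1 in Cort-/- mice, and their part in the Thbd values was not tested. F2r, the receptor that thrombin activates, had 2.83, 2.57 and 2.12 RPKM in Cort+/+ CL and 2.28, 2.58 and 2.59 RPKM in Cort+/+ MCAO libraries. In Cort-/- mice it had 2.36, 2.49 and 2.48 RPKM in CL and 2.51, 2.16, 2.85, 2.71 and 2.71 RPKM in MCAO libraries. Its log2 fold change was 0.03 (95% confidence interval −0.14 to 0.20, limma adjusted p = 0.918), and its sign turned with quantile normalization (−0.027).

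An exact permutation test of the 9 single genes, with the hemispheres exchanged within each genotype in all 1120 ways, gave a two-sided unadjusted p of 0.000893 for Plau, Plaur, Klk6, Klk8 and Thbd, which is the smallest it can give. For these genes it follows from the lack of overlap between the hemispheres, so it adds no separate support. The test treats the libraries as independent. The exact permutation p was 0.0277 for Serpini1, 0.117 for Serpine2, 0.243 for Plat and 0.678 for F2r.

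Within each genotype, the same 5 genes had the largest differences. In Cort-/- mice all 5 were called, against 1.34% of all genes called higher and 0.382% called lower. The log2 fold changes there were 2.18 for Klk6 (SE 0.259, limma adjusted p = 0.00579), 1.79 for Plaur (SE 0.332, adjusted p = 0.0213), 1.45 for Plau (SE 0.186, adjusted p = 0.00698), 1.21 for Klk8 (SE 0.275, adjusted p = 0.047) and 0.74 for Thbd (SE 0.170, adjusted p = 0.0473). The calls of Plau and Klk6 held in all 14 fits with 1 library left out, that of Plaur in 9, and those of Klk8 and Thbd in 3 each. Klk8 and Thbd also lost the call with a pseudocount of 1 RPKM and with quantile normalization, and Klk8 in the fit of the compared groups alone. In Cort+/+ mice limma called none of the 9 genes, against 0.0108% of all genes called. Klk6, Klk8, Plau, Plaur and Thbd had an unadjusted limma p under 0.05 there, as did 3626 of all 46102 genes. Limma voom on recovered reads called 2 of the 9, and 57 of all genes. The study used edgeR instead, and it listed Plaur and Klk6 as higher after ischemia in both genotypes. By comparing the log2 fold changes of the genotypes, it placed both among the genes that rose more in Cort-/- mice. The limma log2 fold changes in Cort+/+ mice were 1.63 for Klk6 (95% confidence interval 1.00 to 2.25, adjusted p = 0.108), 1.28 for Plaur (0.48 to 2.08, adjusted p = 0.324), 1.24 for Plau (0.79 to 1.69, adjusted p = 0.0855), 0.88 for Klk8 (0.21 to 1.54, adjusted p = 0.439) and 0.45 for Thbd (0.04 to 0.86, adjusted p = 0.576). Without replicate 4 of the Cort+/+ MCAO libraries, Plau and Klk6 passed with adjusted p of 0.00606 and 0.0436. For each of the 5 genes every MCAO library exceeded every CL library of its genotype, which held for 5.73% of all genes in Cort+/+ and 4.85% in Cort-/- mice.

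**Figure D2:**
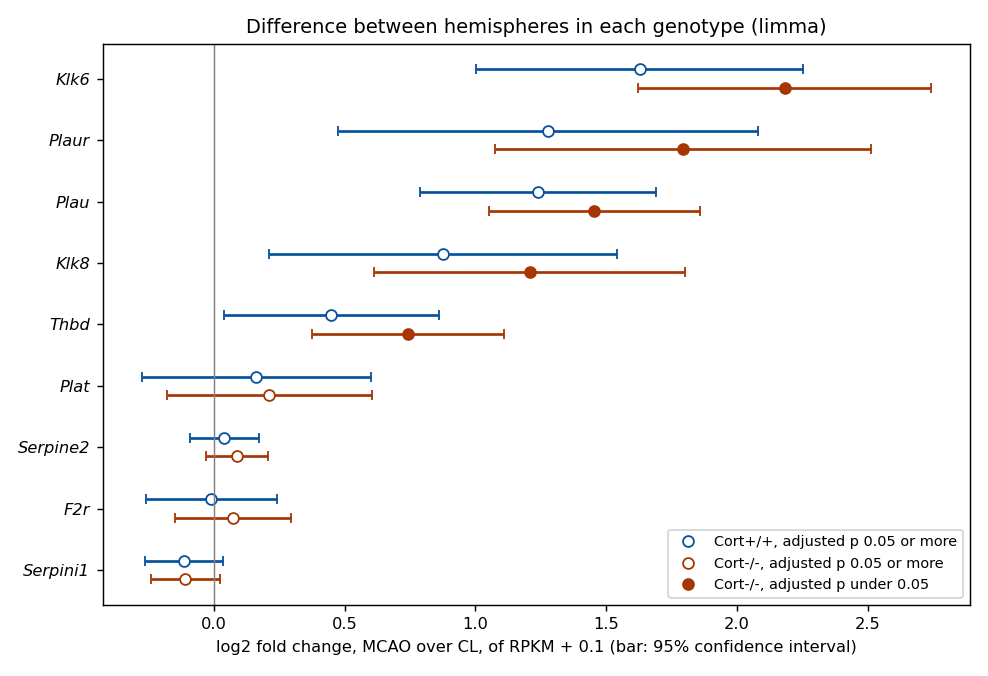
Log2 fold change of the MCAO over the CL hemisphere (horizontal axis, of RPKM + 0.1) with its 95% confidence interval, in Cort+/+ mice (blue, 3 against 3 libraries) and Cort-/- mice (orange, 5 against 3). Filled points have a limma adjusted p under 0.05. The 5 upper genes are filled in Cort-/- mice only, and the intervals of the genotypes overlap for every gene.

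Passing in one genotype and not in the other does not show that the genotypes differ, so the difference was tested itself. The interaction of genotype and hemisphere called none of the 9 genes (limma, with 0 at an unadjusted p under 0.05 and 0 by limma voom), against 0.00217% of all genes. An unadjusted limma p under 0.05 was found for 1527 of the 46102 genes. The estimate was largest for Klk6, where the response in Cort-/- mice exceeded that in Cort+/+ mice by 0.55 on the log2 scale with a 95% confidence interval of −0.28 to 1.39, and next for Plaur at 0.52 (−0.56 to 1.59). The intervals for Klk8 (0.33, −0.56 to 1.22), Thbd (0.29, −0.26 to 0.84) and Plau (0.21, −0.39 to 0.82) were also wide, with upper bounds above 1 on the log2 scale for Klk6, Plaur and Klk8. For Serpine2 and Serpini1 the estimates were 0.05 (−0.13 to 0.23) and 0.00 (−0.19 to 0.20).

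The direct comparison of the genotypes within 1 hemisphere called none of the 9 genes either. In CL hemispheres 0.0152% of all genes were called and in MCAO hemispheres 0.0174%. An unadjusted limma p under 0.05 was found for 1802 and 1762 of the 46102 genes. Serpine2 was the gene with an unadjusted limma p under 0.05 in both hemispheres, while limma voom called none. Its mean was 74.2 ± 2.04 RPKM (SD, n = 3) in Cort-/- and 83.6 ± 3.66 in Cort+/+ CL hemispheres, and each Cort-/- library lay below each Cort+/+ library, as for 2.35% of all genes. The log2 difference, Cort-/- minus Cort+/+, was −0.17 in CL (95% confidence interval −0.30 to −0.04, unadjusted p = 0.0157, adjusted p = 1.0) and −0.12 in MCAO hemispheres (−0.24 to −0.00419, unadjusted p = 0.0435, adjusted p = 1.0), where the libraries overlapped. The sign was kept in all 14 fits with 1 library left out in either hemisphere. In the CL hemisphere the other 8 genes differed between the genotypes by at most 0.15 on the log2 scale. In the MCAO hemisphere Plaur and Klk6 had the largest differences, at 0.47 (−0.25 to 1.19) and 0.47 (−0.09 to 1.03), with overlapping libraries.

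The 8 ischemic libraries differed among themselves, and several of the rising genes had the same libraries at the ends of their range. Replicate 4 of Cort+/+ MCAO was the lowest of the 8 for Plau, Klk6, Klk8 and Plat, and replicate 1 of Cort-/- MCAO was the highest for Plau, Klk6, Klk8 and Thbd. The first of these libraries had the lowest microglial marker sum (115 RPKM), Gfap (119.8 RPKM) and Lyz2 (9.84 RPKM) of the 8, and the second had the highest (196, 361 and 46.7 RPKM), whereas Slc1a2 stood at 229 and 190.4 RPKM. Their part in the members' values was not tested. Thbd followed another order, with replicates 2 and 3 of Cort+/+ MCAO at its low end. Plaur also differed, with its lowest value in replicate 3 (1.06 RPKM) and its highest in replicate 4 (3.15 RPKM) of Cort-/- MCAO. Over the 14 libraries, Pearson's r of log2(RPKM + 0.1) was 0.93 between Klk6 and Klk8, 0.93 between Plau and Klk6, 0.93 between Plau and Klk8 and 0.90 between Plau and Plaur. Serpini1 correlated with Plau at −0.64, and F2r and Thbd at −0.04. These values share the difference between hemispheres, are over 14 libraries of 4 groups and are given as a description.

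The balance between paired members was taken as the ratio of their RPKM in each library. The ratio of Klk6 to Klk8 was 3.09 ± 0.472 (SD, n = 3) in Cort+/+ CL and 5.11 ± 0.887 in Cort+/+ MCAO libraries, and 3.14 ± 0.505 (n = 3) and 6.03 ± 1.16 (n = 5) in Cort-/- mice, without overlap between the hemispheres. The ratio of Plau to Plaur was 1.88 ± 0.703 and 1.70 ± 0.603 in Cort+/+ mice, and 1.90 ± 0.590 and 1.42 ± 0.464 in Cort-/- mice, with overlap. Plau stood at 0.0107 ± 0.00118 of the level of Serpine2 in Cort+/+ CL and at 0.0270 ± 0.00786 in Cort+/+ MCAO libraries, and at 0.0122 ± 0.000711 and 0.0341 ± 0.00724 in Cort-/- mice. Plat stood at 0.230 ± 0.0717 of the level of Serpini1 and at 0.273 ± 0.0502 in Cort+/+ mice, and at 0.262 ± 0.0452 and 0.330 ± 0.0640 in Cort-/- mice, with overlapping libraries. The levels are of mRNA, and neither protein nor enzyme activity was measured.

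**Figure D3:**
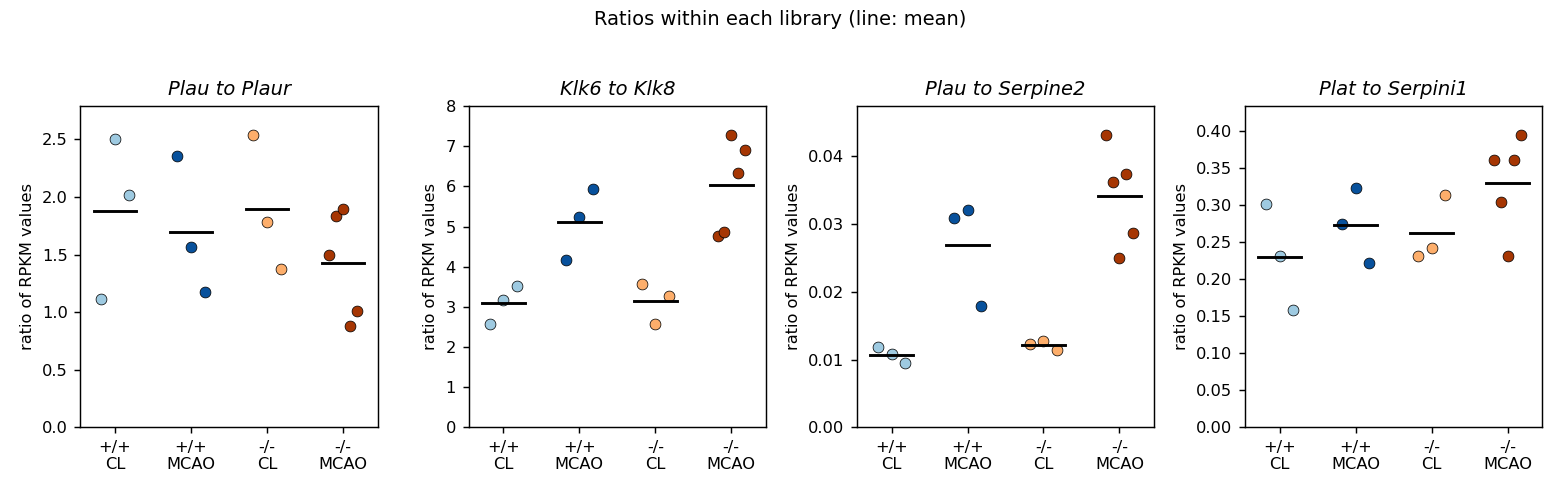
Ratio of the RPKM values of 2 genes within each library (vertical axis, no unit, starting at 0) in the 4 groups, 1 point per library, with the mean as a line. Klk6 to Klk8 and Plau to Serpine2 are higher in every MCAO library than in every CL library, while Plau to Plaur and Plat to Serpini1 overlap.

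Other genes of the same pathways were read from 5 lists. Their counts of calls stand against 2.52% of all genes called higher and 0.902% called lower over both genotypes. Of 16 tested genes of the plasminogen and fibrin system, 2 were called higher in MCAO hemispheres over both genotypes and none lower, with a median log2 fold change of 0.13. They were both chains of the annexin A2 complex, a plasminogen receptor: Anxa2 (log2 fold change 1.13, limma adjusted p = 0.00589) and S100a10 (0.74, adjusted p = 0.0118). Plasminogen itself (Plg) had at most 11 reads in any library, and the fibrinogen chain genes Fga, Fgb and Fgg at most 5, 1 and 2. Among uncalled genes of higher level, Vtn (vitronectin, an adhesive plasma and matrix protein) had a log2 fold change of 0.21 (adjusted p = 0.063), Plgrkt (a plasminogen receptor) 0.22 (adjusted p = 0.0542) and Lrp1 (which clears activator and inhibitor complexes) 0.09 (adjusted p = 0.516). Thbs1 stood at 0.93 without a limma call (adjusted p = 0.0567), though limma voom called it (adjusted p = 0.0186).

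Of the 8 other kallikreins tested, 1 was called higher and none lower, with a median of 0.02. This was Klk9, which ends 787 bases before the start of Klk8 (chr7:43441315-43446181, plus strand). The lncRNA 2310002F09Rik covers all 4867 bases of it on the opposite strand, so reads of the pair may not be separated. Klk9 had 0 or 1 read in each CL library, 8, 50 and 3 reads in the Cort+/+ MCAO libraries and 67, 16, 10, 40 and 46 in the Cort-/- MCAO libraries (limma adjusted p = 0.0108). Klk7 had at most 28 reads in a library (log2 fold change 0.80, adjusted p = 0.235) and Klk10 at most 10 (0.05, adjusted p = 0.937).

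Of 13 other serpins, 3 were called higher and none lower, with a median of 0.22. They were Serpinh1 (a collagen chaperone, 0.64, limma adjusted p = 0.0045), Serpinf1 (pigment epithelium-derived factor, 0.47, adjusted p = 0.00708) and Serpinb6a (0.22, adjusted p = 0.0426). Serpina3n, a serpin known from reactive astrocytes, had a log2 fold change of 1.99 without a limma call (adjusted p = 0.0772), though limma voom called it (adjusted p = 0.034), and its CL libraries spread from 9.72 to 59.6 RPKM. The uncalled Serping1 (C1 inhibitor) stood at 0.78 (adjusted p = 0.139) and Serpinb1a at 0.21 (adjusted p = 0.64).

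Of 17 genes of thrombin and coagulation, 2 were called higher and none lower, with a median of 0.31. Pros1 (protein S, the cofactor of activated protein C) had a log2 fold change of 0.90 (limma adjusted p = 0.0282). F10 (coagulation factor X) had 0 to 3 reads in CL and 4 to 38 in MCAO libraries (adjusted p = 0.0144). Tfpi (tissue factor pathway inhibitor) was called by limma in Cort-/- mice (0.51, adjusted p = 0.0498). Over both genotypes it stood at 0.32 (adjusted p = 0.0734), where limma voom called it (adjusted p = 0.0374), and its interaction of 0.38 did not pass (limma unadjusted p = 0.0507). Prothrombin (F2) had at most 4 reads in any library, and tissue factor (F3), which starts coagulation, had a log2 fold change of 0.12 (adjusted p = 0.581). F5 and F13a1 stood at 0.25 and 0.45 (adjusted p = 0.737 and 0.622).

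Of 12 other extracellular serine proteases, limma called Htra3 (0.45, adjusted p = 0.0283), with a median of 0.10. Limma voom also called St14 (matriptase), at 0.88 and an adjusted p of 0.069 by limma and 0.0216 by limma voom. Htra1, the most abundant of them, had a log2 fold change of −0.01 (adjusted p = 0.989), and Prss12 (neurotrypsin) and Prss23 had 0.01 and 0.10 (adjusted p = 0.984 and 0.686). Of the 65 list genes tested, each counted once, limma called 9 over both genotypes, 8 in Cort-/- mice and 0 in Cort+/+ mice. Limma voom called 13, 9 and 0, and 25, 24 and 13 had an unadjusted limma p under 0.05. Of all 46102 genes, limma voom called 2145, 1294 and 57 in the same order, and 6849, 5862 and 3626 had an unadjusted limma p under 0.05. Between the genotypes limma and limma voom called 0 of the 65 in either hemisphere, with 1 at an unadjusted p under 0.05 in each, and 0 in the interaction, with 0 at an unadjusted p under 0.05. Of all 46102 genes, 1802 in CL, 1762 in MCAO and 1527 in the interaction had an unadjusted limma p under 0.05.

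**Figure D4:**
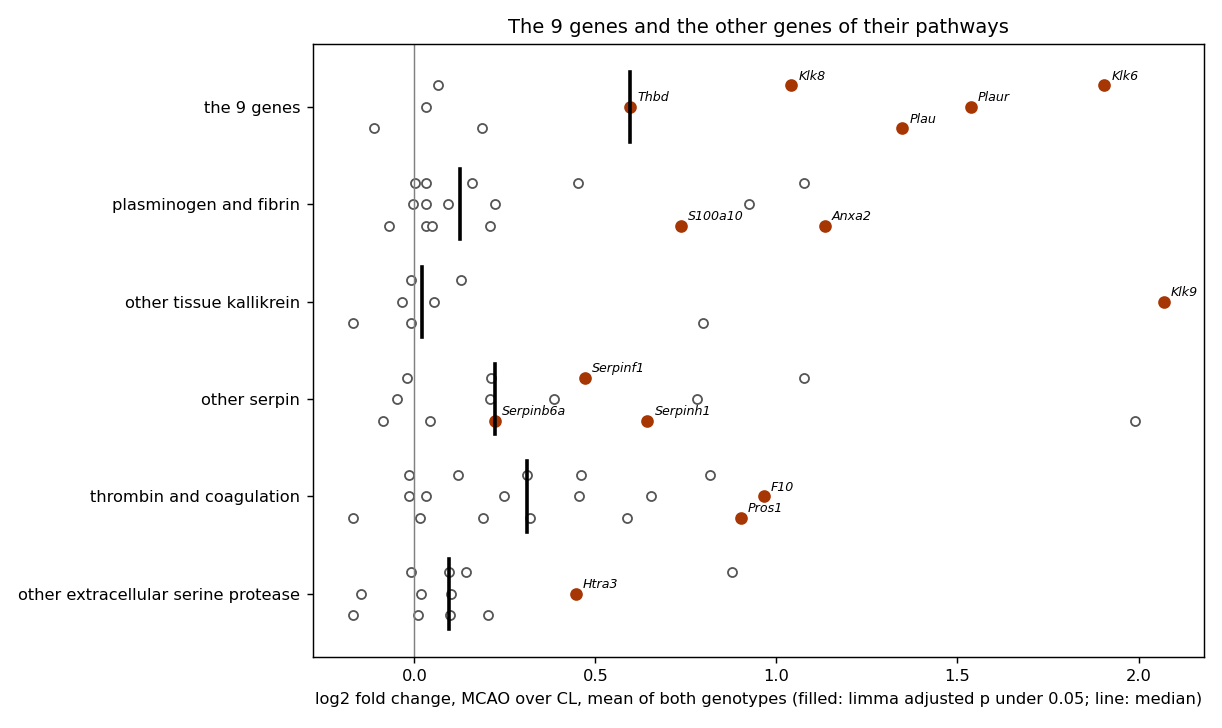
Log2 fold change of the MCAO over the CL hemisphere as the mean of both genotypes (horizontal axis) for the 9 genes and for the tested genes of the 5 pathway lists. Each point is 1 gene, filled and named where the limma adjusted p is under 0.05, and the black line is the median of the row. All filled points lie to the right of 0, from 0.22 for Serpinb6a to 2.07 for Klk9.

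The genes with the most similar pattern over the 14 libraries were taken by Pearson's r of log2(RPKM + 0.1) among genes whose mean reached 1 RPKM, with no test. For Plau they were Gm49369, Ctsd (cathepsin D) and Myo1f at r of 0.99 each, and for Plaur they were Pdlim4 (0.97), Plk1 (0.97) and Esd (0.96). Klk6 was closest to Plod1 (0.98), Lxn (0.98) and Trf (transferrin, 0.97), and Klk8 to Tpt1 (0.98), Fgfrl1 (0.98) and Rpsa (0.98). Plat was closest to Pim3 (0.96), Susd6 (0.95) and Spsb1 (0.95), and Thbd to Podxl (podocalyxin, 0.91), Evi2 (0.91) and Slc13a3 (0.89). The nearest genes of Serpini1 were Serinc1 (0.95), Lrrc4c (0.94) and Trim23 (0.93). Serpine2 and F2r had weaker matches, with Bsg (0.87), Msrb2 (0.84) and Ndufa3 (0.83) for Serpine2 and Golga5 (0.87), Usp40 (0.84) and Gemin4 (0.81) for F2r.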

How the data were processed

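RNA-seq libraries were made by the study with a stranded poly(A) kit from 14 mouse brain hemispheres, 3 CL and 3 MCAO of Cort+/+ and 3 CL and 5 MCAO of Cort-/- mice. Per the study's methods and the labels, reads were aligned to GRCm39 and counted on genes with reanalyzerGSE 3.0.0, and the authors deposited RPKM values, 1 column per library without pooling. How library sizes were scaled and which gene lengths were used is not given in the sources used here. Whole reads were recovered from the RPKM steps: 100% of 495656 values above 0 were whole within 0.0001 reads, which gave the depth of each library.

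Genes above 0 in at least 2 libraries were tested (46102 of 46904) with limma 3.58.1 in R 4.3.3, with a variance trend, on log2(RPKM + 0.1), so fold changes of low genes are understated. A single model of the 4 groups gave the hemispheres within each genotype, their mean, the genotypes within each hemisphere and the interaction. P-values were adjusted by Benjamini-Hochberg over all genes and called under 0.05. The labels and the study give the libraries of each group as independent biological replicates. Whether CL and MCAO libraries share animals is not given, and the main fit treats all libraries as independent. In simulated counts, 200 genes were changed between the hemispheres and 44220 genes were tested. Limma recovered all 4-fold changes, and 64% of 2-fold changes in Cort+/+ mice, 77% in Cort-/- mice and 95% over both. The false calls numbered 14, 16 and 22 in the same order. In the real Cort+/+ libraries, Klk6 was 3.09-fold higher after MCAO (SE 0.289 on the log2 scale) and was not called. The simulation gave every gene the same preset spread, which was not fitted to these libraries, and changed only genes with a minimum mean of reads. Whether the simulated spread matches that of the reported genes was not tested, so these shares describe the simulated counts only. Changes between the genotypes were not simulated. Single genes were also tested by exact permutation within genotype. Alternatives were a pseudocount of 1 RPKM, a mean of at least 0.5 RPKM, TPM, quantile normalization, fits of the compared groups alone, library weights, a replicate block and each library left out. Limma voom on recovered reads was added after the data were seen.

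The 9 genes and the 5 pathway lists were chosen with earlier results of these data known. Named genes are the 9 genes, list genes called in any comparison, up to 3 uncalled list genes of highest mean per list, and the 3 genes most alike each member by Pearson's r. St14, Thbs1, Klk7, Plg, F2 and the fibrinogen genes were named after their values were seen. A gene that is not reported here was left out of the lists and of the most alike genes. Gene positions and windows come from GRCm39 with GENCODE M39, whereas the study counted on an earlier GENCODE release, so gene models may differ.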

Additional observations from a re-analysis of the deposited data

How the results depend on the processing

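The directions of Plau, Plaur, Klk6, Klk8 and Thbd over both genotypes were kept under all alternatives and with each library left out. Their calls were kept under all alternatives except the replicate block, and with each library left out except for Thbd, as given above. Over both genotypes 5 of the 9 genes were called, and 0 with the replicate block. In Cort-/- mice 5 were called, against 3 with a pseudocount of 1 RPKM and 3 with quantile normalization (without Klk8 and Thbd), 0 with the replicate block and 2 to 5 with 1 library left out. In Cort+/+ mice 0 were called, against 1 with a mean of at least 0.5 RPKM (fewer genes tested), 2 with limma voom and 0 to 2 with 1 library left out. The cause of these shifts was not tested. The replicate numbers share only a label: deviations of same-numbered CL and MCAO libraries correlated at 0.32 and −0.14 in Cort+/+ and −0.06, −0.24 and 0.03 in Cort-/- mice, so the numbers were not taken as a pairing, and with the block no gene was called in any hemisphere comparison, at the cost of residual degrees of freedom.

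Signs turned only for differences that passed no test. With the replicate block the interaction was −0.080 for Plau, −0.40 for Plat, −0.17 for Plaur and −0.023 for F2r, and F2r in Cort+/+ mice stood at 0.049. With TPM, the genotype difference in CL was 0.014 for Plaur and 0.031 for F2r, and F2r in Cort+/+ mice stood at 0.019. With library weights, the genotype difference in CL was 0.0055 for Plaur and 0.00011 for F2r, F2r in Cort+/+ mice stood at 0.016, and the interaction of Plat was −0.0075. With quantile normalization F2r over both genotypes stood at −0.027. With 1 library left out, the genotype difference in CL ranged from −0.14 to 0.062 for F2r, −0.36 to 0.076 for Klk6, −0.24 to 0.0043 for Klk8, −0.030 to 0.35 for Plat, −0.041 to 0.085 for Plau, −0.27 to 0.31 for Plaur and −0.31 to 0.071 for Thbd. In MCAO it ranged from −0.0026 to 0.12 for F2r, −0.028 to 0.40 for Klk8 and −0.013 to 0.36 for Plau. The hemisphere difference of F2r ranged from −0.12 to 0.080 in Cort+/+ mice and −0.024 to 0.076 over both genotypes, and that of Plat in Cort+/+ mice from −0.020 to 0.36. The interaction ranged from −0.0062 to 0.19 for F2r, −0.15 to 0.23 for Plat, −0.024 to 0.35 for Plau and −0.059 to 0.050 for Serpini1.

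Over all genes, the count called in Cort+/+ mice was 5, and 57 with limma voom, 28 with a mean of at least 0.5 RPKM, 13 with quantile normalization, 9 with TPM or library weights, 2 with a pseudocount of 1 RPKM, 1 with the compared groups alone, 0 with the block and 3 to 160 with 1 library left out, the highest without Cort+/+ MCAO replicate 4. In Cort-/- mice it was 792, and 1290 with a mean of at least 0.5 RPKM, 1294 with limma voom, 528 with the compared groups alone, 0 with the block and 133 to 1191 with 1 library left out, the lowest without Cort-/- CL replicate 1. Over both genotypes it was 1579, and 2180 with a mean of at least 0.5 RPKM, 2145 with limma voom, 0 with the block and 941 to 1913 with 1 library left out. Between the genotypes it was 7 in CL and 8 in MCAO, and at most 15 and 12 with the alternatives, at least 2 and 4, and up to 27 and 40 with 1 library left out. The interaction gave 1, and 0 with limma voom, the block or a mean of at least 0.5 RPKM, and up to 16 with 1 library left out.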
